A study of Mus musculus with 18 samples.

Results

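This account follows 9 genes of the stretch and stress response of heart muscle: Ankrd1, Ankrd2, Ankrd23, Csrp3, Sprr1a, AA467197, Rcan1, Rtn4 and Tnfrsf12a. They were picked by name from the 19197 genes measured in the apex of 18 mouse hearts, because they were high in infarcted hearts in these data, and all 9 were found in the files. The hearts came from C57BL/6 mice, an inbred strain, and were taken 1 day after surgery, in 3 groups of 6. One group had a sham operation and received vehicle (sham vehicle). The second had a myocardial infarction (MI), the death of heart muscle that follows loss of its blood supply, and received vehicle (MI vehicle). The third had an MI and received DCA at 10 mg/kg per day (MI DCA). The labels do not spell out DCA, which is read here as deoxycholic acid, a bile acid, since the series title pairs it with TGR5, a receptor of bile acids. They give no age, and they do not say that each library came from its own mouse, so a p-value reflects only how these samples vary.

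Heart muscle cells sense load at the Z-disc and along titin, the spring of the sarcomere. Ankrd1, Ankrd2 and Ankrd23 encode the 3 muscle ankyrin repeat proteins, which bind titin and can move to the nucleus, and Csrp3 encodes muscle LIM protein of the Z-disc. Sprr1a, a small proline-rich protein first known from the envelope of skin cells, is also made by stressed heart muscle cells after cytokine signals through gp130. Rcan1 encodes an inhibitor of the phosphatase calcineurin and is itself a calcineurin target. Rtn4 encodes the reticulon Nogo, which shapes the endoplasmic reticulum, and Tnfrsf12a encodes Fn14, the receptor of the cytokine TWEAK. AA467197 encodes a relative of Ndufa4, a subunit of cytochrome oxidase, and its transcript is the host of the microRNA Mir147.

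Values are FPKM, reads scaled to the length of the transcript and the depth of the library. The libraries were made by capture, and FPKM does not correct for how well each gene or exon is captured. Orders of level between genes or transcripts are therefore approximate. Fold changes are differences of log2(FPKM + 1), which understate the change of genes with low values, and are given with a standard error (SE). Because the genes were chosen for their level in infarcted hearts, both comparisons with sham are given as descriptions, with no p-value. MI DCA against MI vehicle was tested with limma, with Benjamini-Hochberg adjusted p over all genes, but this comparison uses the same MI vehicle hearts in which the genes were chosen as high. All 9 genes passed the filter on low values (6 or more of the 12 hearts compared at an FPKM of 1 or more). Against sham, Ankrd2, Sprr1a and AA467197 passed only with the infarcted hearts, since some sham hearts had less than 1 FPKM of each. In bulk tissue, more RNA per cell and more cells of a type cannot be told apart. The related gene lists below were chosen with earlier results known, so their counts against sham are descriptions too. Genes named from a list were picked for a limma adjusted p under 0.05 and a large change against sham. Their adjusted p against sham follows from that choice and is not read as evidence. Only the partners Csrp1, Csrp2, Ttn, Tnfsf12, Ndufa4, Rcan2, Rtn3, Rtn4r and Sprr1b were named whatever their change.

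The libraries held an estimated 9600000 to 10600000 mapped reads in the sham group, 11200000 to 13800000 in MI vehicle and 10200000 to 12900000 in MI DCA. Of 11969 genes tested between MI vehicle and sham vehicle, limma called 4583 higher (38.3%) and 2408 lower (20.1%) at an adjusted p under 0.05. The median over all genes lay at a log2 fold change of 0.12. Median-ratio scaling shifted it by -0.12 and quantile normalization by -0.15, and the share of calls that were higher moved from 65.6% to 49.6% and 46.3%. The fold changes below are relative to the deposited scale. In every group the ventricular muscle markers had by far the largest summed level of the marker lists.

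In MI vehicle hearts all 9 genes were above every sham heart, with no overlap between the groups. The same was true of 16.1% of all genes tested, and since the genes were chosen on these hearts nothing is read from the count. Ankrd1 and Csrp3 were the most abundant of the 9 in all 3 groups, and Ankrd2 and AA467197 were the least abundant. In sham hearts the order by median FPKM was Ankrd1, Csrp3, Ankrd23, Tnfrsf12a, Rcan1, Rtn4, Sprr1a, Ankrd2 and AA467197. The neighbours Ankrd1 and Csrp3 overlapped between hearts, as did Tnfrsf12a, Rcan1 and Rtn4, and the last 3. In MI vehicle hearts Sprr1a stood next after Ankrd23, with a median of 294 FPKM beside 310.2, and from Ankrd23 downward each gene overlapped its neighbour.

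**Figure D1:**
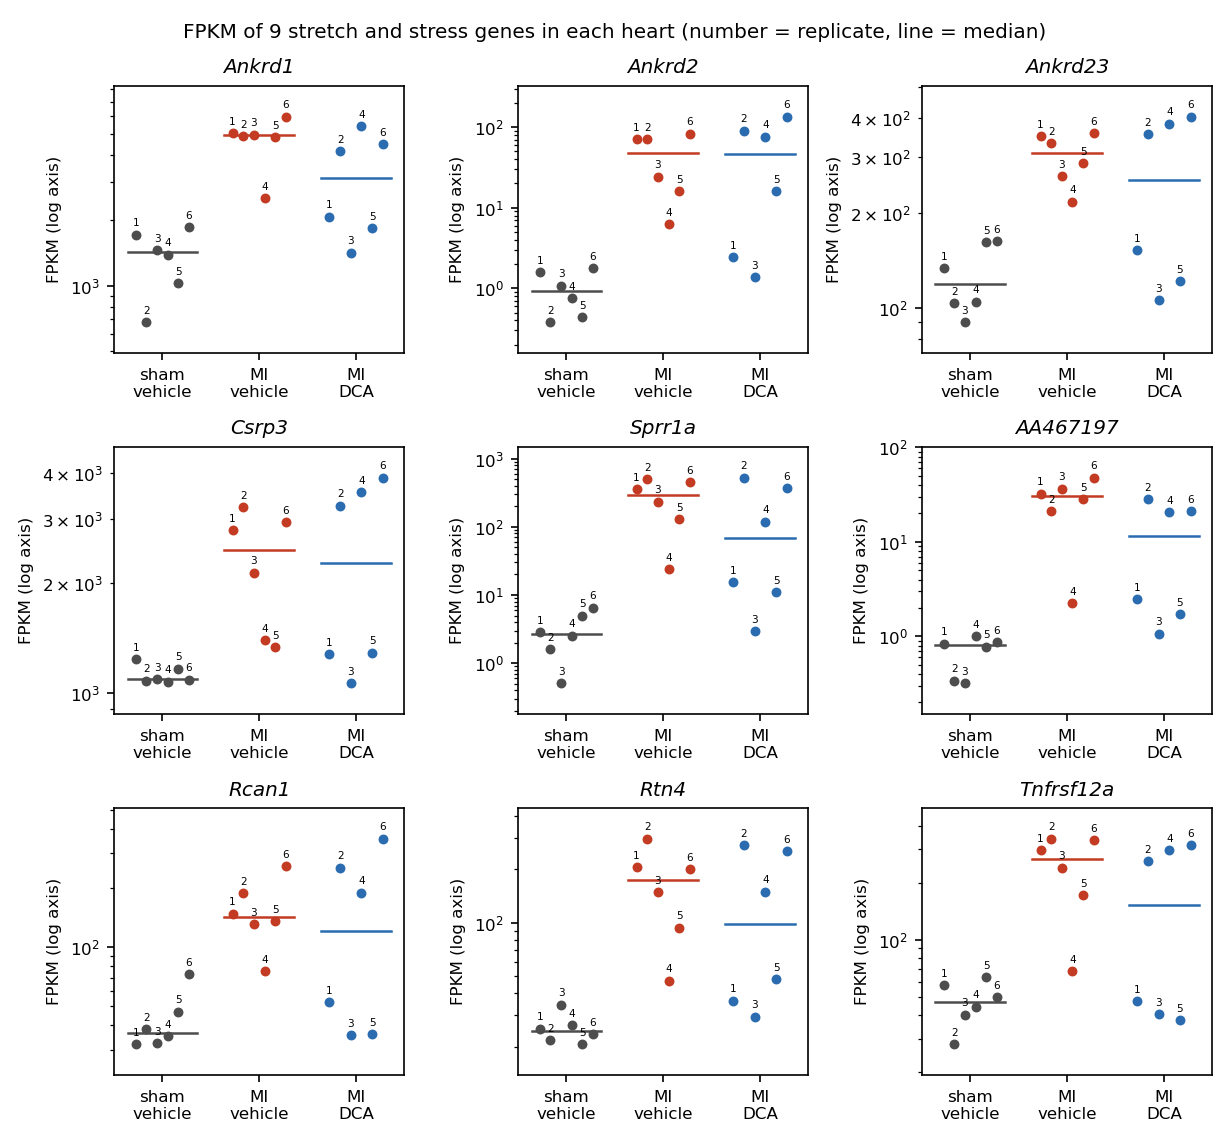
FPKM of each gene (vertical log axis) in 6 sham vehicle, 6 MI vehicle and 6 MI DCA hearts; each point is a heart with its replicate number, and lines are medians. Every MI vehicle heart lies above every sham heart, and for each gene the MI DCA hearts spread more widely than those of either other group.

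Ankrd1 (chr19:36111965-36119844, GRCm38.p6), also known as CARP, was already among the abundant transcripts in sham hearts. Its FPKM in sham hearts was 679 at the lowest, 1424 at the median and 1863 at the highest. In MI vehicle hearts the same values were 2516, 4906 and 5968. The lowest MI vehicle heart, replicate 4, was above the highest sham heart, and the other 5 lay close together, from 4822 upward. The log2 fold change was 1.82 (SE 0.26). In MI DCA hearts Ankrd1 had 1417 at the lowest, 3109 at the median and 5415 at the highest, and 4 of the 6 hearts were above every sham heart.

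Ankrd2 (chr19:42035917-42045111) is best known from slow skeletal muscle. It was near the lower limit in sham hearts, at 0.38, 0.92 and 1.77 FPKM for the lowest, median and highest heart. MI vehicle hearts had 6.20, 47.3 and 82.5 FPKM, a log2 fold change of 4.10 (SE 0.52). MI DCA hearts spread further, from 1.37 over a median of 45.9 to 134 FPKM. Replicates 6 and 2 of MI DCA, the latter at 90.3 FPKM, were thus above every MI vehicle heart, and replicate 3 was inside the sham range. The summed FPKM of skeletal muscle markers was 1432 to 2327 in sham, 996 to 2599 in MI vehicle and 1586 to 2254 in MI DCA hearts, and 7 of the 14, among them Myh1, Myh2, Myh4 and Actn3, were below 1 FPKM in every heart. Of the 7 tested in MI vehicle against sham 3, among them Acta1, were called higher and 1 lower, beside 38.3% and 20.1% of all genes. The list includes Acta1 and Ckm, which are not confined to skeletal muscle, so the sum is no measure of that tissue alone. The part of these markers in the level of Ankrd2 was not tested.

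Ankrd23 (chr1:36530193-36536556), the third muscle ankyrin repeat gene, lay between the other two in level and had the narrowest spread of the 9 within MI vehicle hearts. Its lowest, median and highest FPKM were 90.2, 119 and 163 in sham and 217, 310.2 and 357 in MI vehicle, a log2 fold change of 1.26 (SE 0.17). MI DCA hearts ranged from 106 over 253 to 403. Replicates 2, 4 and 6 of MI DCA were above every sham heart, and replicates 1, 3 and 5 were not.

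Csrp3 (chr7:48830398-48848051) was the steadiest of the 9 in sham hearts, at 1073, 1089 and 1238 FPKM for the lowest, median and highest. MI vehicle hearts had 1332, 2464 and 3228 FPKM, and the log2 fold change of 0.95 (SE 0.21) was the smallest of the 9. Replicates 4 and 5 of MI vehicle, at 1392 and 1332, were only a little above the highest sham heart. In MI DCA the values were 1062, 2275 and 3886, and 3 hearts were below and 3 above every MI vehicle heart.

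The other genes of titin, Z-disc and costamere went both ways after infarction. Of 28 tested, 11 rose and 12 fell in MI vehicle against sham, with a median log2 fold change of 0.02 beside 0.12 for all genes. Fhl1, a LIM protein that binds titin, rose from 81.4 ± 5.23 to 755 ± 407 FPKM (SD, n = 6 per group), a log2 fold change of 2.96 (SE 0.36, limma adjusted p 6.7e-05). Xirp2, an actin-binding protein of the intercalated disc, rose by 2.37 (SE 0.35, limma adjusted p 0.00022). Csrp1 and Csrp2, the relatives of Csrp3 in smooth muscle and other cells, also rose, by 0.81 (SE 0.18) and 1.01 (SE 0.12), with limma adjusted p of 0.0022 and 7.0e-05. Ttn, the gene of titin itself, fell by 0.32 (SE 0.10, limma adjusted p 0.017). Summed ventricular muscle markers fell beside these, from 61045 to 69526 FPKM in sham to 35787 to 60421 in MI vehicle, with 2 of 11 called higher and 8 lower. Their part in the result was not tested.

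The promoters of Ankrd23 and of Sprr1a, the gene with the largest difference of the 9, are shown because they hold motifs of TEAD and AP-1, factors of the tension and stress responses. Windows of 250 bases before and 50 after each annotated start came from RefSeq (GRCm38.p6), which held 14 windows for the 9 genes. Only bases before the start are printed, 5′ to 3′ on the gene's strand. The downstream of 2 starts of Ankrd23 (window chr1:36535740-36535989, minus strand) has the TEAD core CATTCC, in capitals, at positions -120 to -115 from the start. Sprr1a (chr3:92485882-92486131, minus strand) holds 2 copies of the AP-1 site TGACTCA on the opposite strand, at -146 to -140 and -116 to -110, and a TATAAA at -43 to -38, all in capitals.
Ankrd23: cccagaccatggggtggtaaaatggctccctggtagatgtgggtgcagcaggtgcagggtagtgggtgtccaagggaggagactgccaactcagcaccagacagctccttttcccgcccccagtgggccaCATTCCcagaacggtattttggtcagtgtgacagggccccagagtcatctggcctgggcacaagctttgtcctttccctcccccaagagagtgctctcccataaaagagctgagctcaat
Sprr1a: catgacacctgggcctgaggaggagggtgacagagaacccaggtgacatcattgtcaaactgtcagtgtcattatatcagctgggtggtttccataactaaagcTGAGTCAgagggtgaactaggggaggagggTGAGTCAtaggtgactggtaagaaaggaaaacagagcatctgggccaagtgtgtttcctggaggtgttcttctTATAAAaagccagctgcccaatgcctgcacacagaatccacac

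Sprr1a (chr3:92483954-92485881) had the largest difference of the 9. Sham hearts had 0.51, 2.69 and 6.54 FPKM for the lowest, median and highest, and MI vehicle hearts had 23.8, 294 and 503. The log2 fold change was 5.76 (SE 0.64). MI vehicle replicate 4, at 23.8, was far below the next heart, at 131. In MI DCA the lowest heart had 2.95, inside the sham range, the median was 67.4 and the highest had 522, above every MI vehicle heart. The gene's relative Sprr1b was listed at 0 in all hearts. Keratinocyte markers, which would accompany Sprr1a in skin, summed to 1.45 to 2.89 FPKM in sham, 1.03 to 1.95 in MI vehicle and 1.15 to 2.2 in MI DCA hearts, 7 of the 9 were below 1 FPKM in every heart and Krt1 was at 0. Of 19 small proline-rich and cornified envelope genes in the files, 15 were below the filter, 3 rose (S100a10, S100a11 and Tgm2) and 1 fell (Ppl). S100a11 rose by 1.64 (SE 0.23, limma adjusted p 0.00016) and S100a10 by 1.29 (SE 0.22, limma adjusted p 0.00047), both calcium-binding proteins made by many cell types.

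Of 16 gp130 cytokines, receptors and feedback genes tested, 11 rose and 3 fell (Ctf1, Il11ra1 and Lifr), beside 38.3% and 20.1% of all genes. The median log2 fold change of these 16 was 0.55. Socs3, the feedback inhibitor of this pathway, rose from 4.69 ± 1.2 to 25.3 ± 8.57 FPKM (SD, n = 6 per group), a log2 fold change of 2.17 (SE 0.22, limma adjusted p 2.5e-05). Clcf1, a cytokine that signals through gp130, rose by 2.22 (SE 0.42, limma adjusted p 0.00079), and its lowest MI vehicle heart, at 1.34 FPKM, was inside the sham range. Of the AP-1 and ATF factors 14 of 14 tested rose, with a median of 1.07; under median-ratio scaling and under quantile normalization 12 were called higher and none lower. Atf3 rose by 2.24 (SE 0.31, limma adjusted p 0.00015) and Fos by 1.92 (SE 0.18, limma adjusted p 1.9e-05), both immediate stress-response factors.

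AA467197 (chr2:122637887-122641076) was nearly silent in sham hearts, at 0.32, 0.81 and 1.00 FPKM. MI vehicle hearts had 2.24, 30.3 and 47.7, a log2 fold change of 3.75 (SE 0.51), which was 4.81 with a pseudocount of 0.1. MI DCA hearts had 1.07, 11.6 and 28.2. AA467197 was the only gene of the 9 with every MI DCA heart above every sham heart, as were 6.31% of all genes tested. The margin was narrow, 1.07 FPKM beside 1.00, and values this low rest on few reads. The hairpin of Mir147 lies inside the gene, at chr2:122640803-122640881, and was not measured here. Ndufa4, its relative in cytochrome oxidase, went the other way, from 2040 ± 535 to 1272 ± 280 FPKM (SD, n = 6 per group), a fall of 0.67 on the log2 scale (SE 0.18, limma adjusted p 0.0058). Of 16 cytochrome oxidase genes tested 11 fell and 1, Cox6a1, rose, beside 20.1% and 38.3% of all genes, with a median of -0.57. Cox7a1 and Cox8b, both heart and muscle subunits, fell by 0.99 (SE 0.25) and 0.96 (SE 0.21), with limma adjusted p of 0.0041 and 0.0021. The higher call was lost under median-ratio scaling and without sham replicate 4, 5 or 6 or MI vehicle replicate 1 or 6. The summed FPKM of monocyte and macrophage markers was 325 to 545 in sham, 597 to 1224 in MI vehicle and 389 to 881 in MI DCA hearts, and 9 of 10 were called higher in MI vehicle. By heart these sums and AA467197 went together in some cases and not in others. MI vehicle replicate 6 had the highest of both, a sum of 1224 with 47.7 FPKM of AA467197. MI DCA replicate 3 had the lowest of both among the infarcted hearts, 389 with 1.07. MI DCA replicate 4 had a sum of 410.4, inside the sham range, with 20.8 FPKM of AA467197, and MI DCA replicate 5 had 581 with 1.73. Neutrophil markers summed to 9.90 to 36.6, 52.6 to 371 and 39.8 to 176 FPKM, 5 of 5 tested were called higher, and Ly6g, Mpo and Elane were below 1 FPKM in every heart. Their part in the level of AA467197 was not tested.

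Rcan1 (chr16:92391951-92466169) has a pair of transcripts that begin at different first exons. The gene had 32.1, 36.8 and 73.1 FPKM in sham hearts and 75.2, 142 and 258 in MI vehicle hearts, a log2 fold change of 1.80 (SE 0.26). The highest sham heart, replicate 6, stood just under the lowest MI vehicle heart, replicate 4. MI DCA hearts had 35.8, 121 and 355. The transcript from the downstream start, known as the calcineurin-responsive one, had 16.9, 21.3 and 52.7 FPKM in sham, 57.3, 124 and 243 in MI vehicle and 26.6, 107 and 342 in MI DCA. That from the upstream start had 10.7, 17.1 and 28.5 in sham, 14, 15.3 and 19.8 in MI vehicle and 9.03, 12.2 and 18.2 in MI DCA, so all groups overlapped. The downstream transcript thus made up 58.2 ± 13.3% of the gene in sham and 87.8 ± 6.51% in MI vehicle (SD, n = 6 per group), with the highest sham heart at 72.1% and the lowest MI vehicle heart at 76.1%. In MI DCA the share was 84.9 ± 9.80%, and its difference from MI vehicle of -2.91 percentage points gave an adjusted p of 0.626 (two-sided exact permutation test over 924 regroupings, adjusted over 7 transcripts). Reads of 50 bases cover the shared exons of both transcripts, so the split is an estimate of the authors' software.

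**Figure D2:**
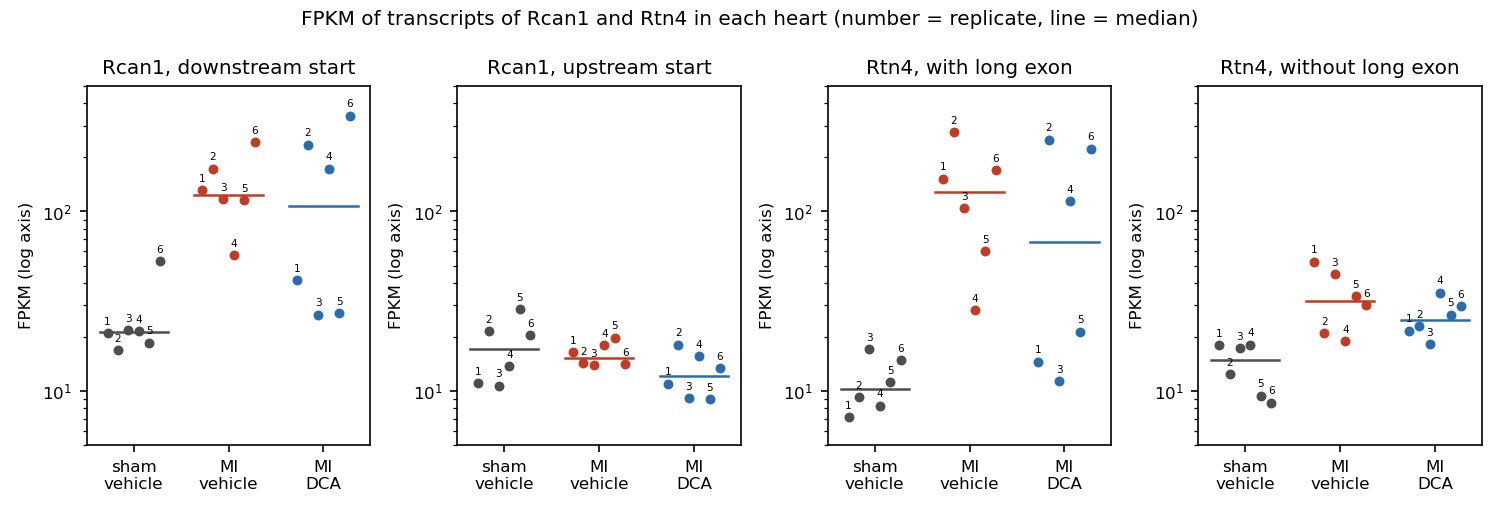
FPKM (vertical log axis) of the Rcan1 transcripts from the downstream and the upstream start, and of Rtn4 transcripts summed with and without the long exon, in each heart of the 3 groups; points are hearts with their replicate number and lines are medians. The upstream Rcan1 transcript has medians of 17.1, 15.3 and 12.2 FPKM, while the downstream one has 21.3, 124 and 107.

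The windows before both starts of Rcan1, and that of AA467197, are shown for comparison. The downstream window of Rcan1 (chr16:92400079-92400328, minus strand) holds the AP-1 site TGACTCA, in capitals, at -110 to -104, and 3 copies of the NFAT core GGAAA on either strand. The upstream window (chr16:92466170-92466419, minus strand) holds neither. AA467197 (chr2:122637637-122637886, plus strand) holds TGACTCA, in capitals, at -73 to -67.
Rcan1 downstream: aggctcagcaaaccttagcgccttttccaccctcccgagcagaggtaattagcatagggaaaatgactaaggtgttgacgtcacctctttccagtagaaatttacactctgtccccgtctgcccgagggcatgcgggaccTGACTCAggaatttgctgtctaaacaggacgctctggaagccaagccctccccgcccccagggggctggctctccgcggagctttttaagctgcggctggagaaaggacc
Rcan1 upstream: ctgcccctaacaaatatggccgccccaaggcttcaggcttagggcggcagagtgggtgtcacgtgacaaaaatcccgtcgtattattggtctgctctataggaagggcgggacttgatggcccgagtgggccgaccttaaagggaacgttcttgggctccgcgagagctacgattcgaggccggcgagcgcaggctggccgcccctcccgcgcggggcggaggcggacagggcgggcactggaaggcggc
AA467197: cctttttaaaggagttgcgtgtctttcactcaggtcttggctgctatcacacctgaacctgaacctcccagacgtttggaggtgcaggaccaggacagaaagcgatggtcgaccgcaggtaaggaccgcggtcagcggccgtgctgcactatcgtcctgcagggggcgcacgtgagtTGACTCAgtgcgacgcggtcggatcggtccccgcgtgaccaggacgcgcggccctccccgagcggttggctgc

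Both strands of all 14 windows were searched for 11 motifs. The AP-1 site TGACTCA was in 4 windows of 4 genes (Sprr1a, Rcan1, AA467197 and, 16 to 22 bases after the start, Rtn4), and in 5.20% of 32851 RefSeq promoter windows. The TEAD core CATTCC was in 4 windows of 3 genes (Ankrd1, Ankrd23 and Rtn4), against 14.66% of all windows. Ankrd1 held it at -210 to -205 and -123 to -118 from its RefSeq start (chr19:36119844), but a GENCODE transcript of the gene starts at chr19:36120099, upstream of both matches. TATAAA was in Sprr1a and Ankrd2, against 13.62%. The short NFAT core GGAAA was in 6 windows of 5 genes, against 61.34%. The muscle E-box CAGCTG was in 1 gene (16.30% of all windows), the hypoxia core ACGTG in 2 (19.62%), the GATA motif AGATAA in 2 (11.18%) and the STAT motif TTCNNNGAA in 1 (8.30%), and no match to the CArG box (1.63%), MEF2 (3.19%) or NF-kB (4.51%) patterns lay in these windows. A match is only a run of letters, and no binding was measured here.

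**Figure D3:**
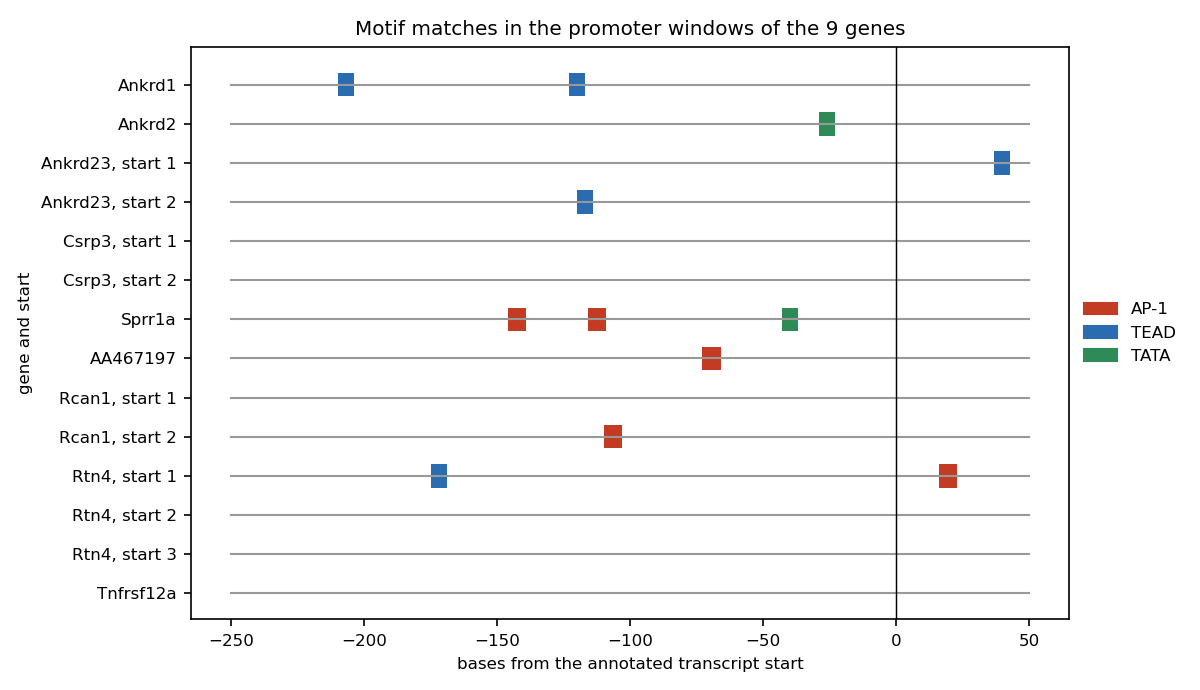
Matches to the AP-1, TEAD and TATA letters (coloured blocks) in the 14 promoter windows of the 9 genes; the horizontal axis is the distance in bases from the annotated transcript start, and starts of 1 gene are numbered from the most upstream. The AP-1 site lies before the start in Sprr1a, AA467197 and start 2 of Rcan1, and after it in start 1 of Rtn4.

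Calcineurin and NFAT genes other than Rcan1 went both ways in MI vehicle hearts. Of 18 tested, 2 rose (Gata4 and Rcan3) and 5 fell, beside 38.3% and 20.1% of all genes. The median log2 fold change was -0.02, and 1 was called higher under median-ratio scaling and none under quantile normalization. Without MI vehicle replicate 4 the higher calls numbered 4, and without sham replicate 2, 3 or 6, or MI vehicle replicate 2 or 6, the lower calls numbered 3. Myoz2, a Z-disc protein that binds calcineurin, fell by 1.06 (SE 0.19, limma adjusted p 0.00053), and Nfatc2, an NFAT factor, fell by 0.51 (SE 0.14, limma adjusted p 0.0063). Rcan2, the close relative of Rcan1, fell by 0.25 (SE 0.09, limma adjusted p 0.027), from 204 ± 15.8 to 172 ± 18.1 FPKM (SD, n = 6 per group).

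Rtn4 (chr11:29692898-29744414) had 20.6, 24.3 and 34.4 FPKM in sham hearts and 47.0, 175 and 297 in MI vehicle hearts, a log2 fold change of 2.46 (SE 0.35). MI DCA hearts had 29.5, 98.9 and 275, with 5 of 6 above every sham heart. Its longest protein form, Nogo-A, needs a long exon of 2361 bases (chr11:29706410-29708770), which 2 of its 5 transcripts hold. Summed after the transcript values had been seen, those 2 had 7.16, 10.2 and 17.1 FPKM in sham, 28.1, 128 and 276 in MI vehicle and 11.3, 68.0 and 252 in MI DCA. The others had 8.59, 14.9 and 18.2 in sham, 18.9, 31.9 and 52.5 in MI vehicle and 18.2, 24.8 and 35.2 in MI DCA. Transcripts with the long exon thus made up 45.0 ± 13.5% of the gene in sham, 74.4 ± 12.6% in MI vehicle and 63.3 ± 24.9% in MI DCA hearts (SD, n = 6 per group), and the lowest MI vehicle share, 59.8%, was below the highest sham share, 63.3%. The 2 did not move together. The one from the start at chr11:29693774 had mean shares of 19.0% in sham, 55.2% in MI vehicle and 54.7% in MI DCA. The other, from chr11:29692947, had 26.0%, 19.2% and 8.57%, and its sham and MI vehicle hearts overlapped. The summed share in MI DCA differed from that in MI vehicle by -11.1 percentage points (two-sided exact permutation p = 0.344).

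Other reticulon, Nogo receptor and endoplasmic reticulum shaping genes were mixed in MI vehicle hearts. Of 21 tested, 9 rose and 6 fell, beside 38.3% and 20.1% of all genes. Their median was 0.10, and 5 were called higher under either other scaling. Ckap4, a protein of the reticulum's sheets, rose by 1.60 (SE 0.24, limma adjusted p 0.00025), whereas Rtn2, a muscle reticulon, fell by 1.24 on the log2 scale (SE 0.24, limma adjusted p 0.00090), from 129 ± 9.66 to 59.1 ± 28.6 FPKM (SD, n = 6 per group). Rtn3 rose by 0.20 (SE 0.07, limma adjusted p 0.030). The Nogo receptor Rtn4r was low, at 3.58 ± 0.94 FPKM in sham and 5.0 ± 3.01 in MI vehicle (SD, n = 6 per group, limma adjusted p 0.54).

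Tnfrsf12a (chr17:23675445-23677449) had 28.0, 46.9 and 63.5 FPKM in sham hearts and 68.3, 268 and 341 in MI vehicle hearts, a log2 fold change of 2.2 (SE 0.34). MI vehicle replicate 4, at 68.3, was the only heart of its group under 100 FPKM. In MI DCA the values were 37.6, 153 and 316, and replicates 1, 3 and 5 were inside the sham range. The ligand gene Tnfsf12 (TWEAK) had 28.0 ± 5.46 FPKM in sham, 24.2 ± 1.08 in MI vehicle and 29.9 ± 5.28 in MI DCA (SD, n = 6 per group), and its log2 difference of -0.19 between MI vehicle and sham did not pass (SE 0.11, limma adjusted p 0.17). Of 19 genes of TWEAK and noncanonical NF-kB signalling, 14 rose and 1 fell, Birc2, beside 38.3% and 20.1% of all genes. Their median was 0.48. Under either other scaling 3 were called lower, and 2 without sham replicate 5 or MI vehicle replicate 4 or 5. The chemokine genes Ccl2 and Ccl7 rose by 3.42 (SE 0.33) and 3.36 (SE 0.33), each with a limma adjusted p of 2.1e-05.

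Hippo, TEAD and MRTF-SRF genes and targets, which report tension on the cytoskeleton, rose in 14 of 23 cases and fell in none in MI vehicle against sham. Of all genes tested, 38.3% rose and 20.1% fell. The median of the 23 was 0.34, and quantile normalization gave 10 higher and 2 lower. Ctgf, a secreted matrix protein and TEAD target, rose from 43.0 ± 11.9 to 391 ± 227 FPKM (SD, n = 6 per group), a log2 fold change of 2.87 (SE 0.46, limma adjusted p 0.00034), and its relative Cyr61 rose by 1.77 (SE 0.33, limma adjusted p 0.00072). For both the groups overlapped. The lowest MI vehicle values were 61.8 FPKM for Ctgf and 35.8 for Cyr61, beside highest sham values of 62.7 and 36.8. Of 12 integrin, costamere and axon regrowth genes tested, 9 rose and 1, Gadd45a, fell, with a median of 0.73. Plaur, the urokinase receptor, rose by 2.66 (SE 0.34, limma adjusted p 9.8e-05) and Cd44, a hyaluronan receptor, by 2.02 (SE 0.23, limma adjusted p 4.3e-05). Smooth muscle and pericyte markers share Acta2 and Tagln with the tension genes, and Des, called higher, with the titin and Z-disc genes. These markers summed to 1478 to 1647 FPKM in sham, 1648 to 4255 in MI vehicle and 1523 to 4260 in MI DCA hearts, with 3 of 9 called higher and 2 lower. Their part in the result was not tested.

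In MI vehicle against sham, 4 of 8 fibroblast markers were called higher and 1 lower, 1 of 8 endothelial markers higher and 2 lower, 1 of 3 epicardial markers tested higher, and 0 of 1 lymphocyte marker tested. The shares over all genes were 38.3% higher and 20.1% lower. Of 4 atrial and conduction markers tested 1 was called higher. The summed FPKM of the list was 147 to 448 in sham, 780 to 7046 in MI vehicle and 385 to 2982 in MI DCA hearts. The list includes Nppa, a natriuretic peptide gene, and the part of each marker in the sum was not tested. The sum is therefore not read as an amount of atrial tissue.

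MI DCA hearts were the most uneven of the 3 groups. Replicates 2, 4 and 6 of MI DCA had all 9 genes above every sham heart, replicate 1 had 6, replicate 5 had 5 and replicate 3 had 1. That gene was AA467197, at 1.07 FPKM, little above the highest sham heart at 1.00. Replicate 3 had the lowest value of its group for 8 genes, and replicate 5 for Tnfrsf12a. In MI vehicle, replicate 4 was lowest for 8 genes and replicate 5 for Csrp3. Ranked among the 12 infarcted hearts, the 9 genes averaged rank 1.11 in MI DCA replicate 3, 2.44 in replicate 5 and 2.78 in replicate 1, with 3.78 in MI vehicle replicate 4. The highest averages were 10.2 in MI vehicle replicate 6 and 10.0 in MI DCA replicate 6. The ventricular muscle markers of the same hearts summed to 65434, 58890 and 59835 FPKM in MI DCA replicates 3, 5 and 1 and to 60421 in MI vehicle replicate 4, and to 35787 and 42030 in the replicates 6. MI DCA replicate 4, with all 9 genes above sham and an average rank of 8.56, had a sum of 55386. The size of the infarct is not in the labels, and its part in these levels was not tested.

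**Figure D4:**
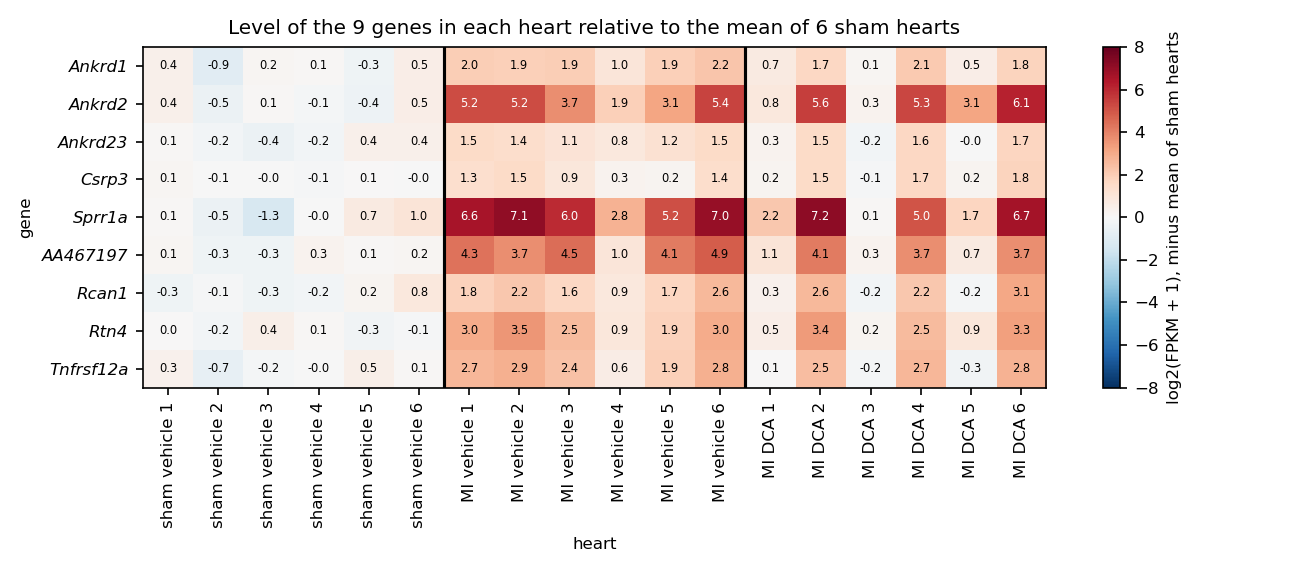
Level of each gene in each heart as log2(FPKM + 1) minus the mean of the 6 sham hearts (colour and printed number; rows are genes, columns are hearts, black lines part the groups). Sprr1a reaches 7.2 in MI DCA replicate 2 and is at 0.1 in MI DCA replicate 3, the heart nearest to sham for most genes.

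Within the 12 infarcted hearts the genes were ordered alike to different degrees, measured as the mean difference in rank of a heart between a pair of genes. Ankrd23 and Rcan1 were closest, at 0.50 places. AA467197 and Csrp3 were farthest apart, at 3.08 places, near the median of 3.25 between AA467197 and 6133 other genes. The 3 genes closest to Sprr1a were Arhgap23, Capn2 and Tpd52, each at 0.17 places. Closest to Ankrd1 were Hk2 (0.67), Dhrsx and Egln3 (both 0.83), and to Ankrd2 Ppp2r2d (0.33), Ak6 and Azin1 (both 0.50). For Rcan1 they were 1110002E22Rik, Cdv3 and Otud1 (all 0.67), and those close to Tnfrsf12a included Nmd3 and Nppb (both 0.50). Over all 18 hearts only Ak6, Capn2 and Nppb stayed among the closest 3.

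The effect of DCA after infarction was asked of MI DCA against MI vehicle. None of the 9 genes passed the test, and neither did any of the 12004 genes tested (0%), the smallest adjusted p over all genes being 0.301. At an unadjusted limma p under 0.05 there were 1299 genes, 192 higher and 1107 lower, and none of the 9 was among them. All 9 had a fold change below 0 on the log scale, as did 64.8% of all genes tested, but the mean FPKM was higher in MI DCA than in MI vehicle for Ankrd2 (53.3 against 45.1) and Csrp3 (2387 against 2303). The genes had been chosen for being high in these MI vehicle hearts.

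Ankrd1 had a log2 difference of -0.67 (SE 0.34, 95% interval -1.42 to 0.08, limma adjusted p 0.483). For Sprr1a it was -1.96 (SE 1.21, interval -4.57 to 0.66, limma adjusted p 0.542), and for AA467197 it was -1.47 (SE 0.82, interval -3.25 to 0.31, limma adjusted p 0.503). Tnfrsf12a differed by -0.95 (interval -2.34 to 0.44, limma adjusted p 0.565), Rtn4 by -0.64 (-2.0 to 0.72, limma adjusted p 0.667) and Rcan1 by -0.50 (-1.76 to 0.76, limma adjusted p 0.713). Ankrd2 differed by -0.56 (-2.85 to 1.73, limma adjusted p 0.822), Ankrd23 by -0.44 (-1.19 to 0.31, limma adjusted p 0.610) and Csrp3 by -0.07 (-0.90 to 0.76, limma adjusted p 0.942). The intervals hold both no difference and, for Sprr1a, AA467197, Tnfrsf12a and Ankrd2, a difference of more than 2 on the log2 scale, so these samples do not show that the groups are alike. The sign for Ankrd2 turned without MI DCA replicate 3, to 0.09, and for Csrp3 with median-ratio scaling, to 0.01, and without any of 6 single hearts (MI vehicle replicate 1, 2 or 6, or MI DCA replicate 1, 3 or 5), to at most 0.12. No list of the 10 had a called gene in this comparison. Of the named partners, Csrp2 had a difference of -0.50 (SE 0.16, limma adjusted p 0.407), Tnfsf12 of 0.28 (SE 0.11, limma adjusted p 0.418) and Ndufa4 of 0.39 (SE 0.21, limma adjusted p 0.490).

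**Figure D5:**
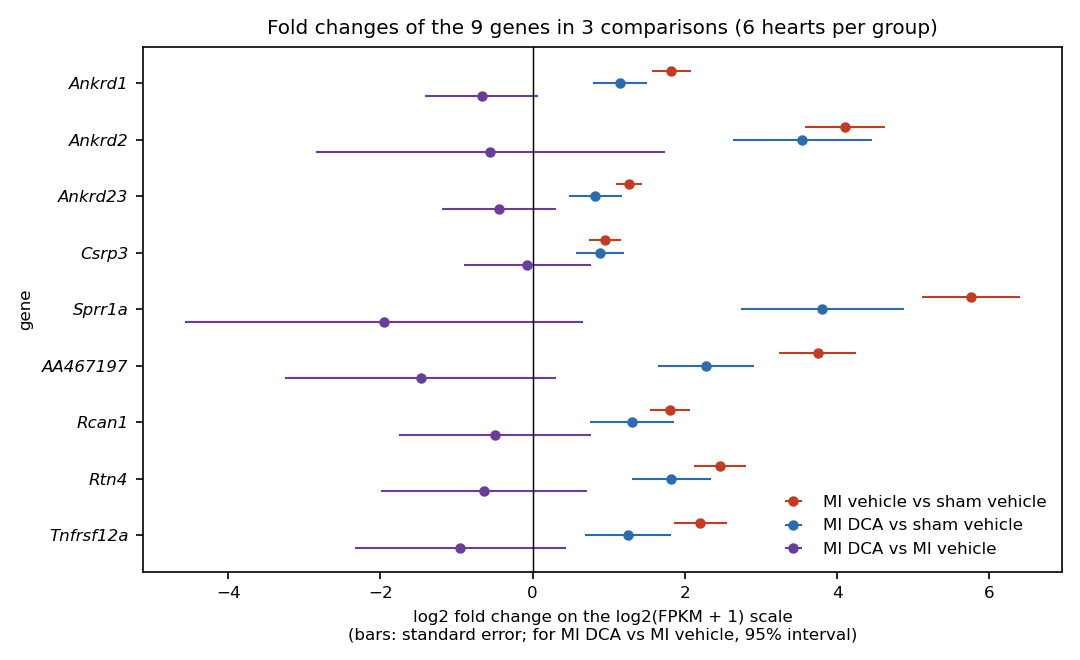
Log2 fold change of each gene on the log2(FPKM + 1) scale in the 3 comparisons, 6 hearts per group; bars are the standard error for the comparisons with sham and the 95% interval for MI DCA against MI vehicle. All 9 intervals of MI DCA against MI vehicle span 0.

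Beside sham, with which MI vehicle was also compared, MI DCA hearts had log2 fold changes of 3.81 (SE 1.07) for Sprr1a, 3.54 (SE 0.91) for Ankrd2, 2.27 (SE 0.63) for AA467197, 1.82 (SE 0.52) for Rtn4, 1.30 (SE 0.55) for Rcan1, 1.26 (SE 0.56) for Tnfrsf12a, 1.15 (SE 0.35) for Ankrd1, 0.88 (SE 0.32) for Csrp3 and 0.82 (SE 0.35) for Ankrd23. The SE of each was larger than in MI vehicle against sham. Of the 9, limma called 5 higher (Ankrd1, Ankrd2, Sprr1a, AA467197 and Rtn4), against 15.5% of the 11842 genes tested, and nothing is read from this count. It was 9 without MI DCA replicate 3 or 5, and 1 without MI DCA replicate 2, 4 or 6 or sham replicate 2. It was 2 without sham replicate 3, 3 without sham replicate 4 and 0 without sham replicate 5.

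Ankrd2 was the only one of the 3 genes with shares tested whose transcript makeup passed the test between MI DCA and MI vehicle. Its main transcript made up 71.1 ± 38.4% of the gene in MI DCA and 96.8 ± 2.07% in MI vehicle (SD, n = 6 per group), an adjusted p of 0.0455 (two-sided exact permutation test, adjusted over 7 transcripts). The lowest shares were in 2 hearts with little Ankrd2: MI DCA replicate 3, at 1.37 FPKM, had a share of 0%, and replicate 1, at 2.42 FPKM, had 1.29 FPKM of the main transcript. Without MI DCA replicate 2, 4 or 6 the adjusted exact permutation p was 0.0303, and without replicate 1 or 5 it stayed at 0.0455. Leaving out any 1 MI vehicle heart gave an adjusted exact permutation p between 0.328 and 0.419, and without MI DCA replicate 3 the minor transcript fell under the 10% needed for a comparison.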

How the data were processed

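RNA was extracted with Trizol from the frozen apex of perfused hearts, made into RNA Access capture libraries and read as single 50-base reads on a BGISEQ-500, per the labels' protocols. Among the tools, the submitters' processing notes list RSEM 1.2.12, Bowtie2 2.2.5 and DESeq2 1.4.5, with the build GRCm38.p6 and no role for any of them. The authors deposited 1 value for each of 19197 genes and 64405 transcripts per library. The header names no unit; the deposited values were taken as FPKM, since the sum of value times length varied less between libraries (coefficient of variation 0.71%) than the sum of values (3.50%). The files hold no counts, so depth was estimated from the spacing of low values, searched between 8000000 and 16000000 reads, and all errors are spreads between hearts.

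The 9 genes, the 10 gene lists, the 11 marker lists and the tests were chosen with earlier results of these data known. Samples were grouped by tissue and treatment labels and numbered by title. Within a group, libraries correlated at 0.965 to 0.996 over genes, and no pair was identical. limma 3.58.1 (R 4.3.3, intensity trend, no covariates) was fitted to log2(FPKM + 1) on the 2 groups of each comparison, with the filter given in the text. Of each list, the 2 called genes with the largest change in MI vehicle against sham and a mean FPKM of at least 5 were named. The adjusted p against sham of genes named this way follows from the rule and is not read as evidence. Another 9 partner genes were named whatever their change. Transcript shares were taken for transcripts with at least 10% of their gene and compared by exact permutation over 924 regroupings, whose smallest p is 0.00216. A planned test of shares against sham is not given, because the genes were chosen on that contrast. Likeness was measured over genes with a mean FPKM of at least 10, and 1 gene it gave is not reported here. Of the gene identifiers, 19051 (99.2%) matched RefSeq, the source of coordinates and promoters. Each test was tried on simulated data. Alternatives were pseudocounts of 0.1 and 0.5, other filters, other scalings, 1 fit of all groups, a robust fit, a replicate block and leaving out each heart. A planned comparison of protein sequences was not analysed here.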

Additional observations from a re-analysis of the deposited data

Results flagged for a closer look

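Of 27 sets of 6 hearts (9 genes in 3 groups), 2 held a heart that lay apart from the others, by Dixon's 95% limit on the gap to the nearest heart over the whole range; chance gives about 1 in 20. Ankrd1 in MI vehicle replicate 4 had 2516 FPKM, with the next heart at 4822. Rcan1 in sham vehicle replicate 6 had 73.1 FPKM, with the next heart at 47.0.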

How the results depend on the processing

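The 9 fold changes of MI vehicle against sham kept their direction under all 21 alternatives, as did those of MI DCA against sham. In MI DCA against MI vehicle 7 of the 9 kept theirs, and none of the 9 passed the test under any alternative. The sign turned for Ankrd2 without MI DCA replicate 3, to 0.0921 (over leaving out each heart, -1.07 to 0.09), and for Csrp3 with median-ratio scaling, to 0.0126, and without single hearts, from -0.25 to 0.12. Genes called lower in MI vehicle against sham numbered 3693 with quantile normalization. Leaving out single hearts gave 0 to 1 genes called lower in MI DCA against MI vehicle, the 1 without MI vehicle replicate 5. In MI DCA against sham it gave 740 to 2596 genes higher and 315 to 1489 lower, beside 1830 and 987, and 0 to 9 of the 9 genes called. Quantile normalization gave 1555 lower there. Same-numbered samples did not deviate together: correlations of their deviations ran from -0.45 to 0.70, and of the 6 numbers only 6 correlated best with its own number in each comparison. With a replicate block, MI DCA against sham had 1124 genes higher and 572 lower and 4 of the 9 genes called. MI vehicle against sham had 4306 higher and 2258 lower with all 9 called, and MI DCA against MI vehicle had 0 called. The 9 were chosen as high in infarcted hearts, so nothing is read from how many of them were called against sham. The cause of these shifts was not tested.

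Of the 15 genes found most alike, 3 were among the closest 3 over 18 hearts. The share of the main Ankrd2 transcript differed by -25.7 percentage points between MI DCA and MI vehicle with transcripts of at least 5% of the gene, at an adjusted exact permutation p of 0.0649, because more transcripts were tested, and by -30.4 to -22.1 without single hearts. The minor Ankrd2 transcript differed by 22 to 30.3 points without single hearts. Without MI DCA replicate 3 the minor transcript fell under 10% and the gene was not compared. The share of the main long Rtn4 transcript, -0.52 points, turned to 1.28 as a share of reads assigned and ranged from -3.76 to 2.88 without single hearts. Depth limits the low genes: the sham values of Ankrd2 and AA467197, and all shares of Ankrd2 in hearts with under 3 FPKM, rest on few reads.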
